A study of Mus musculus with 2 samples.

Results

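The regions described here were the anti-FLAG CUT&Tag peaks that the authors' annotation assigned to olfactory receptor genes (Olfr) or to vomeronasal receptor genes of the Vmn1r and Vmn2r families. They were picked out by gene symbol alone, and no measured value entered that rule, though the families were chosen with earlier results of these data known. There were 440 such peaks among 99782 annotated peaks, a share of 0.441%. Of these, 329 were assigned to 241 Olfr genes, 45 to 40 Vmn1r genes and 66 to 42 Vmn2r genes. The study profiled chromatin binding of PARIS, a repressor of transcription with zinc fingers (mouse gene Zfp746), in hippocampus from C57BL/6J mice of the genotype CamK-PARIS, without any treatment. It consisted of 1 library made with anti-FLAG and 1 made with IgG, both of the CamK-PARIS genotype. The peak list belongs to the anti-FLAG library, and IgG entered only as the control in the authors' peak calling, so the values below have no replicate error. The labels give neither the cell types in which the transgene is active, nor the ages and numbers of the mice.

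Olfactory receptors and both vomeronasal receptor families are G-protein-coupled receptors of sensory neurons in the nose. Their genes sit in long arrays formed by local duplication, and a mature olfactory neuron expresses a single receptor allele while the others stay in compact, silenced chromatin. Vmn1r receptors signal through the G protein subunit encoded by Gnai2, and Vmn2r receptors, which have a large extracellular domain, through that encoded by Gnao1. These families are not known as hippocampal genes, so their clusters were used as a background reference for the density, height and shape of called peaks. No RNA was measured in these libraries, and the silence of the receptor genes was not tested.

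The first 4 sequences below show what lay under the 2 highest receptor peaks and near 2 receptor transcript starts by the authors' distance. The last 2 were chosen because their windows hold the PARIS motif, which 14.1% of receptor windows did. Each is the plus strand of mm10, 5′ to 3′, in a window of at most 200 bp centred on the region of maximum signal and clipped to the peak. Capitals mark CpG dinucleotides in the first 4 and a match to the PARIS motif in the last 2.
Olfr213 chr6:116547511-116547710: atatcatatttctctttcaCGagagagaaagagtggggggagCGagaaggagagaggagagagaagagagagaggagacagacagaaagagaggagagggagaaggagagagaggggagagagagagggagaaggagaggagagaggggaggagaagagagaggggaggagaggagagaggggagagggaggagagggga
Olfr463 chr11:87898825-87899024: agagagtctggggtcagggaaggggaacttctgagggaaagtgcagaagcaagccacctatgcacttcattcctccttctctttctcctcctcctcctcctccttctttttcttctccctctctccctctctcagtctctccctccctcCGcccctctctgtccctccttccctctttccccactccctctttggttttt
Vmn1r61 chr7:5611121-5611320: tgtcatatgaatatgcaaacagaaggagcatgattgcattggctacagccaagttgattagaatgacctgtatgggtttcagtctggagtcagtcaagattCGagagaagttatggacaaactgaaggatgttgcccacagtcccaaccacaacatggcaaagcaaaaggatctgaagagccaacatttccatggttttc
Vmn2r29 chr7:7277944-7278143: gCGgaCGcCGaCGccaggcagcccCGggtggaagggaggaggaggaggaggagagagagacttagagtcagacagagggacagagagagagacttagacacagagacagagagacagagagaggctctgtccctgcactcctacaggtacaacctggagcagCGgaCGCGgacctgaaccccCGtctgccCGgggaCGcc
Olfr1505 chr19:14225137-14225336: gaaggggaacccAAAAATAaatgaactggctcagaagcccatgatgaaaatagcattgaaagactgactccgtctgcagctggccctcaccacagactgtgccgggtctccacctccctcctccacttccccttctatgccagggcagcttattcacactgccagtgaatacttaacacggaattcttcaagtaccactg
Vmn1r199 chr13:22381216-22381386: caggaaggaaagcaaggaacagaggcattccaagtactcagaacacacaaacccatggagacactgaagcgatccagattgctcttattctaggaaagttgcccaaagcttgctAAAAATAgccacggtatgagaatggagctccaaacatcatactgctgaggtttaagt

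The windows under the 2 tallest receptor peaks were runs of mostly purines or mostly pyrimidines. At Olfr213, 90.5% of the plus-strand bases were purines and 79.5% were repeat-masked in the reference, and at Olfr463, 26% were purines and 70% were masked. Vmn1r61 and Vmn2r29 had peaks near the transcript start that the authors assigned, though not within 1 kb of the annotated 5′ end of the gene. The Vmn1r61 window was unmasked and held 1 CpG. The Vmn2r29 window held 11 CpG dinucleotides and had a GC content of 63.5%. The motif searched was TATTTTT or TATTTTG on either strand, an insulin response sequence reported as the binding element of PARIS, and the windows of Olfr1505 and Vmn1r199 carry it as AAAAATA.

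Receptor clusters held few peaks. The 1972 receptor genes of the GENCODE M21 annotation were joined into 81 clusters, each a run of at least 2 receptor genes with neighbours up to 200 kb apart. These clusters held 1923 of the genes and covered 53.1 Mb on 19 chromosomes. By position alone, 515 peaks lay inside them, or 9.70 per Mb (exact Poisson 95% interval 8.88 to 10.6). The rest of the same chromosomes held 39.6 peaks per Mb (39.4 to 39.9), and the ratio of the densities was 0.245 (0.224 to 0.267). These intervals cover counting error over peaks only. The cluster density was further below the rest for taller and for less uniform peaks. Among peaks in the top 10% by the authors' maximum signal, which is the highest coverage in a peak and here at least 189, the ratio was 0.112 (0.0719 to 0.167), from 24 peaks in clusters. A peak was called constant in height when its total signal was at least 99% of its maximum signal multiplied by its width. The ratio was 0.155 (0.129 to 0.185) for peaks that were not constant and 0.297 (0.269 to 0.328) for constant ones.

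Of the 515 peaks inside clusters, 377 were receptor peaks and 138 were assigned to 65 other genes that lie in or beside the arrays. The other 63 receptor peaks lay outside any cluster. Among all 440, 104 had their region of maximum signal inside the body of a receptor gene and 275 lay between the genes of a cluster.

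The clusters also differed from the rest of their chromosomes in sequence and gene content. GC content was 39.0% in clusters and 41.8% outside, and 49.97% of cluster bases were repeat-masked against 34.0% outside. The share of 50-mers that occur only once on chromosomes 1 to 19, X and Y was 71.5% in clusters and 89.1% outside. Per Mb of such unique sequence the clusters held 13.6 peaks and the rest 44.5, a ratio of 0.305. In 100 kb bins, 48.3% of 522 cluster bins held no peak (Wilson 95% interval 44.0 to 52.6), compared with 15.2% of 23688 bins outside. Outside bins that overlapped no protein-coding gene lay between these values, with 27.2% of 8537 bins empty and 19.4 peaks per Mb. When bins were restricted to the range between the quartiles of cluster GC content and to at least 80% unique 50-mers, 124 cluster bins held 9.03 peaks per Mb. Under the same limits, 2226 outside bins without a protein-coding gene held 14.6 per Mb, and 46.0% (37.4 to 54.7) of cluster bins and 26.7% (24.9 to 28.6) of outside bins were empty. The median share of unique 50-mers was 84.9% in these cluster bins and 88.3% in these outside bins, so the bins were not equal in uniqueness. The part of GC content, uniqueness and gene content in the density was not tested further.

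Peak density was higher outside the cluster edges than inside, in steps. Inside values cover only the 52 clusters of at least 200 kb. The first 50 kb outside covered 7.93 Mb and the first 50 kb inside 5.2 Mb, so outside values also take in flanks of shorter clusters. More than 100 kb inside an edge, density was 8.41 per Mb. It was 12.5 per Mb from 50 to 100 kb and again from 0 to 50 kb inside. In the first 50 kb outside it was 28.2 per Mb (24.7 to 32.2), then 40.5 from 50 to 100 kb and 50.1 from 100 to 200 kb. From 300 to 500 kb away it was 52.8 per Mb. Peaks that were not constant in height numbered 2.01 per Mb deep inside, 3.08 from 50 to 100 kb inside and 2.31 just inside the edge. Outside they numbered 9.71 in the first 50 kb and 22.8 at 300 to 500 kb. Starts of protein-coding genes other than receptors numbered 2.59 per Mb deep inside, 4.04 just inside and 17.9 just outside. Unique 50-mers made up 71.9% of 50-mers deep inside and 87.4% at 300 to 500 kb. Their part in the density steps was not tested.

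**Figure D1:**
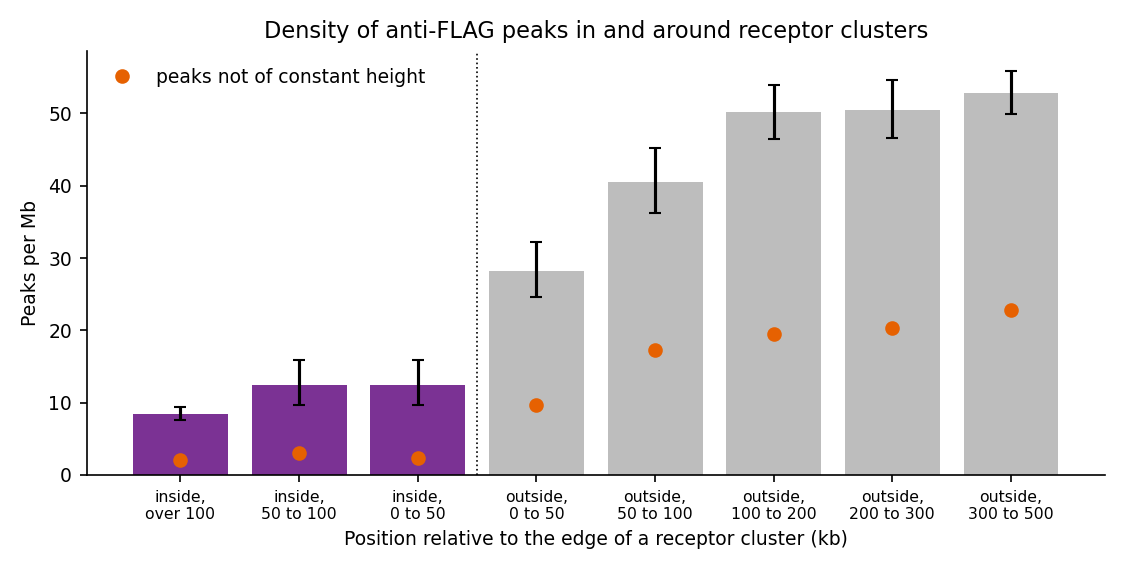
Bars give anti-FLAG peaks per Mb (vertical axis) by position relative to the edge of receptor clusters in kb (horizontal axis), purple inside and grey outside, with exact Poisson 95% intervals, and orange points give the peaks that were not constant in height. Inside bars use the 52 clusters of at least 200 kb, and outside bars also take in flanks of shorter clusters. Density goes from 8.41 per Mb deep inside to 52.8 per Mb at 300 to 500 kb outside.

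Low density held across most clusters. Density was below that of the own chromosome in 75 of 81 clusters, and 12 clusters held no peak, the longest of these spanning 170 kb. In part of the 75, mostly short clusters, the interval reached above the chromosome's density. It did so at chr1:92475925-92623412 (7.39 to 69.4 against 35.7) and at the empty chr7:26255080-26270619 (0 to 237 against 49.4). All 18 clusters of at least 1 Mb were below their chromosome, at 0.705 to 11.6 peaks per Mb with a median of 6.94. The largest array, at chr2:85330779-90403897 with 287 Olfr genes over 5073 kb, held 41 peaks, all assigned to receptors and 13 of them not constant. That is 8.08 per Mb (5.80 to 11.0), where chromosome 2 held 44.0. An Olfr array of 123 genes at chr9:37708964-40190134 held 28 peaks, or 11.3 per Mb. The sparsest of the long clusters was chr7:21832351-23251682 with 23 Vmn1r genes, which held 1 peak, and only 2.84% of its 50-mers were unique. A neighbouring array of 37 Vmn1r genes at chr7:20099680-21614985 held 4 peaks and had 6.50% unique 50-mers. The mixed Olfr and Vmn2r array at chr7:84810387-87044941 held 9 peaks, 4.03 per Mb (1.84 to 7.65), with 84.1% unique 50-mers.

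Density exceeded that of the chromosome in 6 clusters, of which the longest spanned 360 kb. The highest was chr11:87884979-87920967, a run of 3 Olfr genes in 36.0 kb with 4 receptor peaks, all not constant, at 111 per Mb (30.3 to 285) against 57.4 for chromosome 11. It holds the peak of Olfr463 shown above and 3 peaks of its neighbour Olfr464. The next was chr4:43694784-43857595 with 10 peaks at 61.4 per Mb (29.5 to 113) against 41.9, none of which departed from constant height. The lower bound of the interval was below the chromosome's own density in all 6.

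Olfr arrays held more peaks per Mb than vomeronasal arrays, but not more than Vmn2r arrays beyond counting error when scaled to unique sequence. Clusters in which at least 80% of the receptor genes belonged to 1 family held 12.3 peaks per Mb (11.0 to 13.6) for Olfr over 44 clusters, 4.60 (3.31 to 6.22) for Vmn1r over 15 and 6.63 (4.87 to 8.82) for Vmn2r over 15. The Olfr interval did not overlap either of the others, and those of Vmn1r and Vmn2r overlapped. Unique 50-mers made up 81.9% of the Olfr clusters, 50.2% of the Vmn1r clusters and 49.2% of the Vmn2r clusters. Per Mb of unique 50-mers, a scaling added after the data were seen, the densities were 14.998 (13.5 to 16.6) for Olfr, 9.17 (6.61 to 12.4) for Vmn1r and 13.5 (9.90 to 17.9) for Vmn2r, and the Vmn2r interval overlapped both others. By chromosome, the authors assigned 89 receptor peaks on chromosome 7, which has 533 receptor genes, and 61 on chromosome 2, which has 372.

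**Figure D2:**
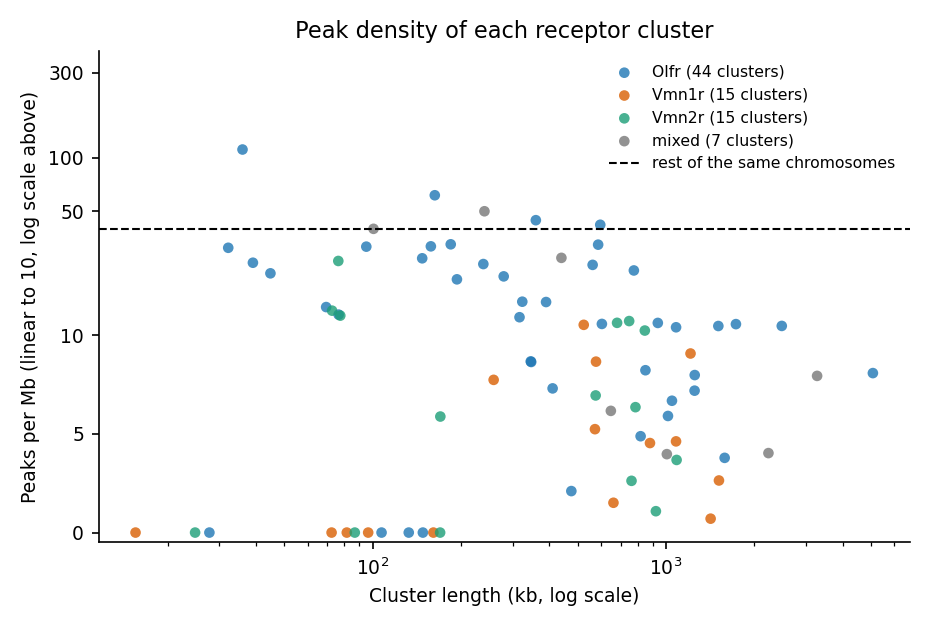
Each point is 1 of 81 receptor clusters, with its length in kb on a log scale (horizontal axis) and its peaks per Mb (vertical axis, linear to 10 and logarithmic above), coloured by the family that makes up at least 80% of its receptor genes. The dashed line is the density of the rest of the same chromosomes, 39.6 per Mb, and all 18 clusters of at least 1 Mb lie at or below 11.6.

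Peaks were rare at receptor gene starts. A peak lay within 1 kb of the annotated 5′ end of 38 of 1972 receptor genes, or 1.93% (1.41 to 2.63), compared with 37.0% of all 21938 protein-coding genes. By family the counts were 26 of 1407 Olfr genes (1.85%), 4 of 327 Vmn1r genes (1.22%) and 8 of 238 Vmn2r genes (3.36%), with overlapping intervals. A peak that was not constant in height lay at 11 receptor starts, or 0.558%, compared with 25.8% of protein-coding genes. Only 1 receptor start had a peak of the top 10% by maximum signal, compared with 11.0% of protein-coding genes. Among starts with at least 90% unique 50-mers, 29 of 1453 receptor genes (1.996%) and 7791 of 19288 protein-coding genes (40.4%) had a peak. Receptor pseudogenes had a peak at 11 of 505 starts and protein-coding receptors at 26 of 1466.

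Receptor families of other chemosensory cells gave small counts over few genes. A peak lay at the start of 1 of 16 trace amine-associated receptor genes (Taar) and 0 of 40 bitter taste receptor genes (Tas2r). It was 0 of 3 for sweet and umami taste receptor genes (Tas1r) and 0 of 8 for formyl peptide receptor genes (Fpr). Wilson intervals reached 28.3% for Taar, 8.76% for Tas2r, 56.1% for Tas1r and 32.4% for Fpr. The Tas1r interval thus covered the 37.0% of protein-coding genes. Counts were 4 of 58, or 6.90% (2.71 to 16.4), for the keratin-associated proteins of hair (Krtap) and 0 of 43 for the antimicrobial beta-defensins (Defb). Clustered protocadherins (Pcdh), adhesion molecules expressed in neurons, had a peak at 5 of 58 starts, or 8.62% (3.74 to 18.6). The intervals of Krtap and Pcdh overlapped, and both lay above the interval of the receptor genes and below the 37.0% of protein-coding genes. Among starts with at least 90% unique 50-mers, the counts were 1 of 36 for Krtap (2.78%) and 5 of 52 for Pcdh (9.62%). The receptor genes had 29 of 1453 there, so the Krtap share was close to theirs.

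**Figure D3:**
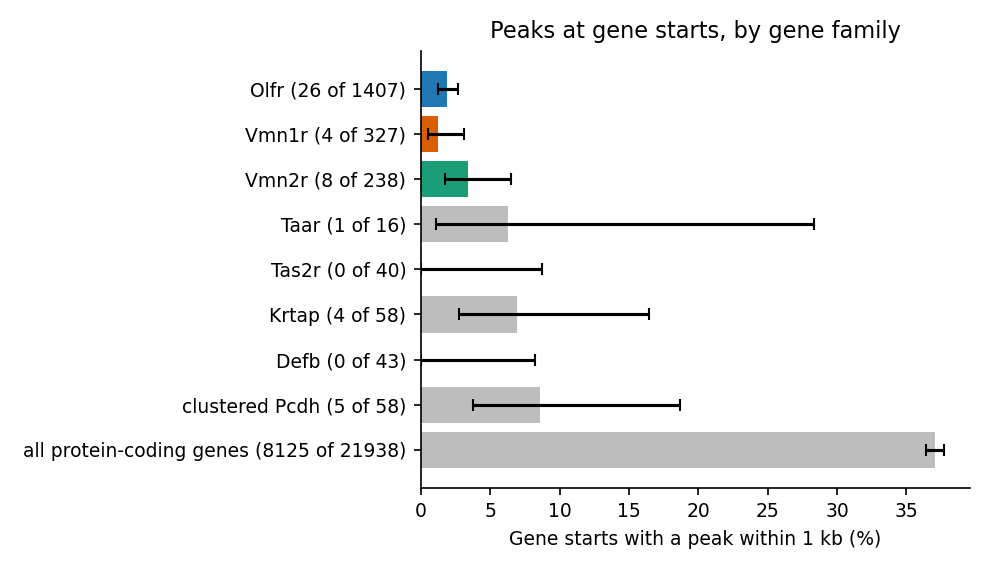
Bars give the percent of gene starts with a peak within 1 kb (horizontal axis) for each gene family (vertical axis, with counts), and error bars are Wilson 95% intervals. The Olfr, Vmn1r and Vmn2r bars lie between 1.22% and 3.36%, and the bar of all protein-coding genes at 37.0%.

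The highest peak at a receptor 5′ end had a maximum signal of 280 and lay less than 1 kb upstream of Vmn2r-ps15, a pseudogene on chromosome 4, and the authors assigned it to Znf41-ps. The next was 184, at the pseudogene Vmn2r-ps17, assigned to Zfp991. Olfr464 followed with peaks of 153 and 141 in its first 1 kb. The start of Vmn1r4 had a peak of 142, and the start of Nt5c3, an enzyme gene that is no receptor, lay 145 bp from it. Over the 37 peaks at these starts the maximum signal ranged from 12 to 280 with a median of 80, and at 9 genes the peak was assigned to a gene that is no receptor.

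By the authors' own distance to the transcription start site (TSS), 25 receptor peaks at 25 genes lay within 1 kb. That is 5.68% of receptor peaks (3.88 to 8.25), compared with 15.4% of the other peaks. Only 8 of these 25 genes were also among the 38 above. The authors' distance refers to an assigned transcript, whose start can differ from the 5′ end of the gene. The maximum signal of these 25 ranged from 12 to 251 with a median of 88, against a median of 116 for other peaks within 1 kb of a TSS. The share of constant height was 80% for the 25 and 44.4% for those other peaks. The highest were Vmn1r61 at 251, 210 bp from its TSS, and Vmn2r29 at 217, 137 bp from its TSS. The Vmn2r29 peak was also the widest of the named peaks at 1579 bp, and the start of Gm45844 lay 246 bp from it. Olfr457 followed at 156, Olfr313 at 147, Olfr1446 at 140, Vmn2r3 at 136, Vmn1r39 at 128, Olfr460 at 121, Olfr487 at 116 and Olfr94 at 97. Of these 10, Vmn1r61, Vmn2r29 and Olfr94 were not constant in height. Olfr78, a receptor also known outside the nose, had a constant peak of 92 at 299 bp, a gene singled out after its value was seen.

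Receptor peaks were lower and narrower than other peaks, and more often of constant height. Their maximum signal had a median of 86 (quartiles 46 and 120, range 7 to 370), compared with 101 for the other peaks (66 and 135, range 5 to 2395). Width had a median of 295.5 bp against 363 bp. The distributions overlapped widely. No receptor peak reached 400, which 0.776% of the other peaks did. By the limit of 3 counts, a count of 0 in 440 allows a share of up to 0.682%, which is below 0.776%. By the Wilson interval it allows up to 0.866%, which is above 0.776%. The answer depends on the limit used, so 440 peaks did not settle whether the shares differ at this height. In the top 10% of all peaks by maximum signal were 18 receptor peaks, or 4.09% (2.60 to 6.37), compared with 10.1% of the others. Constant height was found in 347 receptor peaks, or 78.9% (74.8 to 82.4), and in 63.2% (62.9 to 63.5) of the others.

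The gap between medians was wider among peaks that were not constant. Constant receptor peaks had a median maximum of 84 and the other constant peaks had 91. The 93 receptor peaks that were not constant had a median of 90 (quartiles 36 and 154), compared with 134 (84 and 196) for the others, at median widths of 579 and 604 bp. Among these, 18.3% of receptor peaks and 27.5% of the others were in the top 10% of all peaks. No constant receptor peak was above 191, the value at Vmn2r2, or wider than 698 bp. Constant peaks of other genes had a like ceiling, with a highest signal of 234, 6 of 62809 at 200 or more, and a width of at most 701 bp.

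**Figure D4:**
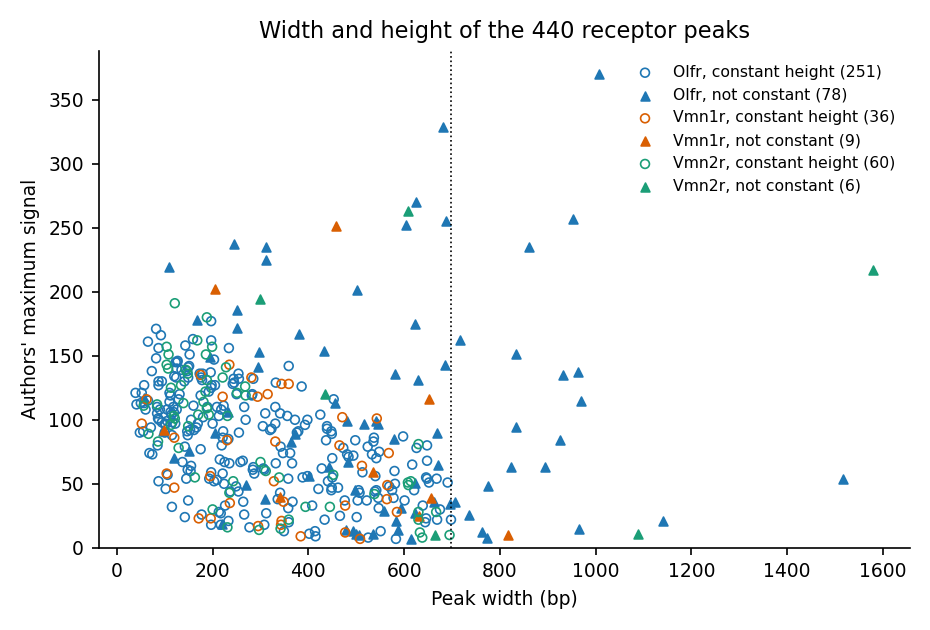
Each point is 1 of the 440 receptor peaks, with its width in bp (horizontal axis) and the authors' maximum signal (vertical axis), coloured by family, with open circles for constant height and filled triangles for the rest. The dotted line marks 698 bp, the widest constant receptor peak, and every receptor peak above 191 is a triangle.

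The receptor families overlapped in height. The median maximum signal was 87 for Olfr, 59 for Vmn1r and 102 for Vmn2r peaks, with broadly overlapping quartiles of 49 to 119, 33 to 116 and 44.5 to 130. Constant height was most frequent in Vmn2r peaks, at 90.9% (81.6 to 95.8), compared with 80% in Vmn1r and 76.3% in Olfr peaks. Distance to the assigned TSS had a median of 8499 bp for Olfr, 10771 bp for Vmn1r and 28954 bp for Vmn2r peaks. Receptor peaks inside clusters had a median maximum of 90 and those outside 61, and the shares of constant height were 78.8% and 79.4%.

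**Figure D5:**
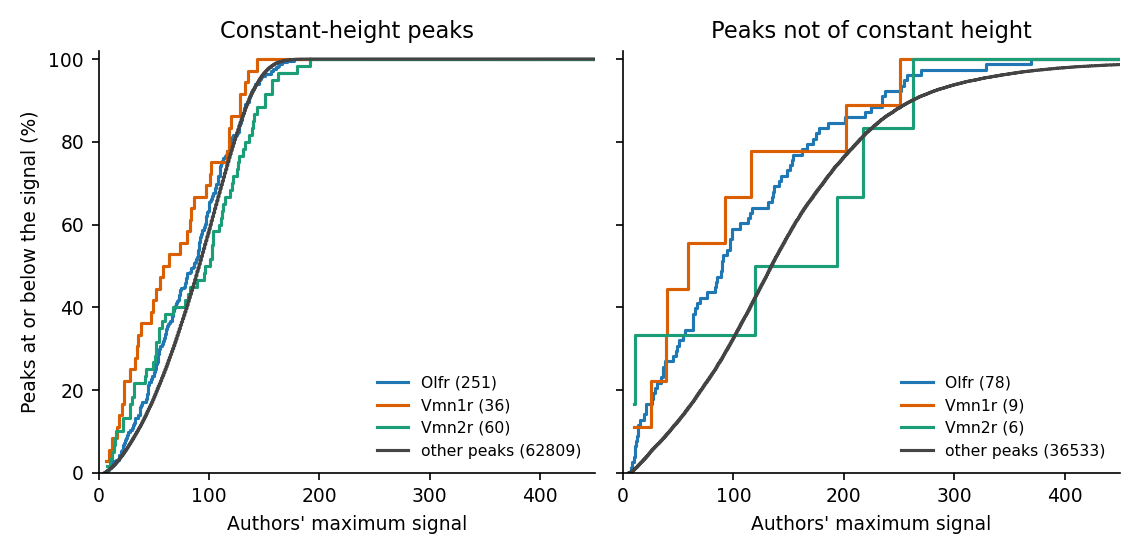
Curves give the percent of peaks at or below each value of the authors' maximum signal (horizontal axis), with constant-height peaks on the left and the rest on the right, for the 3 receptor families and for the other peaks. On the right the curve of the 78 Olfr peaks, with a median of 90, lies left of that of the other peaks, with a median of 134, and the 9 Vmn1r and 6 Vmn2r peaks there are few.

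Position relative to genes also differed. By the authors' classes, 66.4% of receptor peaks (61.8 to 70.6) and 31.8% of the others were intergenic, and 8.41% (6.16 to 11.4) and 38.1% were intronic. Most Olfr and Vmn1r genes are short with a single coding exon. The nearest start of a protein-coding gene other than a receptor was at a median of 137088 bp from receptor peaks, a distance that the choice by assigned gene lengthens. Intergenic receptor peaks had a median maximum of 85.5 and 77.1% were constant, compared with 97 and 68.0% for the other intergenic peaks. Within 5 kb of another protein-coding start, 5 of 9 receptor peaks were not constant, or 55.6% (26.7 to 81.1), and 51.2% of the other peaks there. At 5 to 20 kb the shares were 20% of 15 receptor peaks and 36.3% of the others, and at 20 to 100 kb 23.9% of 142 and 35.2%. From 100 to 200 kb away they were 18.1% (12.2 to 26.1) of 116 receptor peaks and 32.4% (31.6 to 33.3) of the others, and beyond 200 kb 18.99% (13.6 to 25.8) of 158 and 26.2% (25.5 to 26.9). Among receptor peaks the shares beyond 5 kb showed no order with distance.

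The highest receptor peak, with a maximum signal of 370 and a total signal of 184693, was assigned to Olfr213 and spanned chr6:116547318-116548325. It ranked 1042 by maximum signal in the whole list, lay 7136 bp from the TSS between the genes of a cluster, and was 3531 bp from the start of Gm5580. The second, at Olfr463 (chr11:87898656-87899336), reached 329 at 4950 bp upstream of the TSS. Olfr1392 had a peak of 270 at chr11:49286992-49287616, inside a receptor gene body and given the intron class. Vmn2r87 had one of 263 at chr10:130542224-130542832, outside any cluster and 45019 bp upstream. The peak assigned to Olfr1505, at chr19:14224797-14225749, reached 257 but lay 306267 bp from the TSS and outside any cluster. For such distant peaks the receptor is only the nearest annotated gene. Of the tallest peaks by family, the Vmn1r ones were Vmn1r61 at 251, Vmn1r199 at 202 and Vmn1r26 at 143, and the Vmn2r ones were Vmn2r87 at 263, Vmn2r29 at 217 and Vmn2r7 at 194. All of these but Vmn1r26 were not constant.

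Most receptor genes had no assigned peak. Of the 323 genes with one, 318 had their symbol among the 1972 receptor genes of GENCODE M21. Among protein-coding genes alone, 315 of 1466 receptor genes had an assigned peak, compared with 15553 of all 21938 (70.9%). Receptor pseudogenes had one at 3 of 505. Of the 323 genes, 247 (76.5%) had a single peak. Olfr1423 on chromosome 19 had the most, with 9 peaks of 7 to 255 and a median of 89, of which 6 were not constant. Its 2 tallest peaks, at 255 and 235, lay 24800 and 34198 bp from its TSS between genes of the cluster. Olfr464, Olfr1395, Olfr161 and Olfr524 had 5 each. Those of Olfr464 reached 153, those of Olfr1395 131, those of Olfr161 130 and those of Olfr524 90, and all of Olfr161 and Olfr524 were constant. The 5 of Olfr161 lay 23366 to 455911 bp upstream of its TSS. In all, 23 receptor peaks lay within 1 kb of another.

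Some receptor peaks lay in sequence where no sampled 50-mer was unique, and whether read pairs could be placed there was not tested. Around 21 of 440 receptor peaks, or 4.77% (3.14 to 7.19), no 50-mer was unique, compared with 0.624% (0.576 to 0.674) of the others, and the median maximum signal of these 21 was 28. The 236 receptor peaks with only unique 50-mers had a median of 92, compared with 104 for such peaks of other genes, and 80.9% and 64.99% were constant. Olfr1565, singled out after its values were seen, had 4 peaks on chromosome 2 that formed 2 pairs of identical sequence in inverted order. The pair of 834 bp (chr2:90188570-90189403 and chr2:90357290-90358123) had maximum signals of 94 and 151, and the pair of 623 bp (chr2:90194955-90195577 and chr2:90351116-90351738) had 51 and 27. Reads that lie wholly inside the copies of a pair cannot be told apart, and these 4 peaks hold 2 distinct sequences. Peaks of 477 bp at Vmn1r123 and Vmn1r160 on chromosome 7 were 99.8% identical, at 12 and 33.

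Receptor summits were poorer in GC and richer in repeats than other summits, as were their clusters. In 200 bp windows the GC content was 43.0% ± 8.05 (SD over 440 windows) at receptor peaks and 49.1% ± 8.91 at the others, a difference of -6.02 percentage points. Tiles of the clusters had 39.0% ± 7.39 and tiles of the rest of the chromosomes 41.8% ± 7.91, so summits in both sets had more GC than their surroundings. Repeat-masked bases made up 43.3% of receptor windows and 22.2% of the others, compared with 49.97% of cluster tiles and 34.0% of the rest. The PARIS motif was in 62 receptor windows, or 14.1% (11.2 to 17.7), and in 9.92% (9.74 to 10.1) of the others. It was more frequent in the surroundings, at 21.1% of cluster tiles and 17.7% of the tiles elsewhere. By family the share was 12.8% for Olfr, 11.1% for Vmn1r and 22.7% (14.3 to 34.2) for Vmn2r peaks. Peaks of receptors that were not constant held it in 14.0% and others that were not constant in 6.97%. GC content differs between these sets, and its part in the motif share was not tested. A core of the motif of CTCF, a protein that binds insulators and loop anchors, was searched on both strands. It was in 4 receptor windows, or 0.909% (0.354 to 2.31), and in 1.84% of the others. Cluster tiles held it in 0.546% and tiles elsewhere in 1.04%, and the receptor interval covered each of these shares.

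Genes that act with the receptors but are not all restricted to the nose were compared with the same background. Of 24 listed genes, 23 had an assigned peak, where 70.9% of all protein-coding genes had one, and the exception was Omp, which encodes olfactory marker protein. The highest maximum signal per gene had a median of 182 over these 23 and of 150 over all protein-coding genes with an assigned peak. The number of peaks per gene, which can raise such a maximum, was not matched. Over all 21938 protein-coding genes, 8125 starts (37.0%) had a peak within 1 kb, and 5658 had one that was not constant. A peak lay within 1 kb of the annotated start of 9 of the 24, near the share of 37.0%, and at all 9 it was not constant. Among these were Gnai2 at 345, Adcy3, the adenylyl cyclase of olfactory cilia, at 120, Ano2, a calcium-activated chloride channel, at 182, and Ric8b, an exchange factor for the olfactory G protein, at 220. The chromatin genes Ldb1, Lbr and Cbx5, whose products take part in receptor choice or in heterochromatin, reached 328, 316 and 420. Among listed genes without a peak within 1 kb of the annotated start, Lhx2 reached 267, Kdm1a 178, Gng13 156, Ebf1 155, Atf5 139 and Gnal 118. Gnao1 had 23 peaks, the highest at 381. By the authors' distance, 12 of the 24 had a peak within 1 kb of a TSS. Peaks not assigned to receptors fell on 18295 genes in all, and 10070 of these genes had one within 1 kb. The channel genes Cnga2 and Cnga4 had 1 peak each, of 124 and 101, and Trpc2, the channel of vomeronasal neurons, had 1 of 282. None of these 3 was within 1 kb of a TSS, the distances being 20705, 6659 and 4401 bp.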

How the data were processed

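CUT&Tag was measured in hippocampus with 1 anti-FLAG and 1 IgG library. Per the labels' protocols, the authors used Bowtie2 and mm10 for paired-end alignment after trimming, filtered out duplicates and poor alignments, and ran SEACR with IgG as control. Versions, the SEACR settings and the annotation tool are not given in the sources used here. The deposited peak list gives each peak's total and maximum signal, summed and highest coverage, on a scale that is not given there, and a deposited table gives the gene, class and distance to the TSS. Depth is unknown and signal tracks were not used here. Intervals cover counting error over peaks only, and peaks of 1 library are not replicates.

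A peak's position was the midpoint of its region of maximum signal, set against GRCm38.p6 (mm10) and GENCODE M21, with coordinates counted from 1. Windows, repeat masking and 50-mers, sampled every 100 bp, came from the reference sequence. Python 3.11.15, numpy 2.4.6, pandas 2.3.3, scipy 1.17.1 and numba 0.67.0 were used, and the density and 50-mer steps were tested on simulated data. Shares carry Wilson and densities exact Poisson 95% intervals, with no test between groups.

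The genes named are those of the 5 receptor peaks highest in maximum and in total signal, the 5 with most peaks, the 10 with the highest peaks within 1 kb of their TSS, the 3 highest per family and a list of 24 genes of the pathway. The clusters, Olfr78, Olfr1565, Vmn1r123, Vmn1r160, Vmn2r2 and the genes at annotated 5′ ends were named after their values were seen. The receptor genes and lists were chosen with earlier results of these data known. Alternatives were stricter sets of peaks, membership by position, merging, other distances, windows and cluster gaps.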

Additional observations from a re-analysis of the deposited data

How the results depend on the processing

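Of 32 alternatives over 7 results, 12 were classed as unchanged, 20 as moved and 0 as reversed in direction. Unchanged meant within the interval of the value reported, except for the number of receptor peaks, for which no interval was given. Taking all 515 peaks inside clusters was classed as unchanged, although their share of 0.516% lay outside the interval of the 440 (0.402 to 0.484%). With peaks in the top 10% by maximum signal, 18 receptor peaks remained, the density ratio was 0.112 and gene starts with a peak 0.0507%. Peaks within 1 kb of a TSS were 11.1% (2 of 18 receptor peaks, against 3240 of 10044 others). Constant height was 5.56% (1 of 18, against 13 of 10044 others) and the ratio of median signal 0.987. Without constant-height peaks there were 93 receptor peaks, a density ratio of 0.155, 0.558% of gene starts and a median ratio of 0.672. With all peaks inside clusters as members, 12.4% lay within 1 kb of a TSS and the GC difference was -5.02 percentage points. The density ratio was 0.222 with genes up to 100 kb apart and 0.310 with 500 kb. Gene starts with a peak were 0.963% within 500 bp and 6.09% within 3 kb, and receptor peaks within 3 kb of a TSS 17.0%. The ratio of medians was 0.75 for total signal. Of 2 alternatives chosen after seeing the data, unique 50-mers gave a density ratio of 0.305, and any transcript start gave 2.79% of receptor genes, against 45.6% of protein-coding genes.

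No paired analysis was possible because each antibody has 1 library and the peak list covers the anti-FLAG library. Without a replicate or the IgG signal, the spread between libraries is unknown, and peaks that IgG would also give were not counted here. Depth is unknown, and its part in the low density was not tested.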
